A study of Mus musculus with 12 samples.

Results

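Cyclins, cyclin-dependent kinases (CDKs) and CDK inhibitors that govern entry into the cell cycle were followed through 12 RNA-seq libraries of mouse bone marrow cells sorted as hematopoietic stem cells (HSCs). The set held 10 genes, taken by their gene symbols with no filter on level: the D cyclins Ccnd1, Ccnd2 and Ccnd3, the E cyclins Ccne1 and Ccne2, the kinases Cdk4 and Cdk6, and the inhibitors Cdkn1b, Cdkn1c and Cdkn2c. All 10 were found, each on 1 of the 31340 rows of the tables.

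The mice were wild-type, and per the study's methods of the C57BL/6 strain. The 4 groups of 3 libraries were unirradiated controls (Ctrl), mice given total body irradiation (IR), and irradiated mice that carried a further label, Ab (Ab_IR) or L (L_IR). What Ab and L stand for is not given, and the labels' wording is kept. Irradiated cells were taken 3 days after a single sublethal exposure to gamma rays, and the methods describe the sort as Lineage- Sca-1+ c-Kit+ Flt3- CD34-. No source says whether libraries of a group came from separate mice, so every p-value here measures the spread between these libraries, which may be technical. Levels are FPKM, fragments per kilobase after scaling to the size of each library. They can be set side by side between genes but carry no read counts, so the depth is unknown.

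D cyclins bind CDK4 or CDK6, and the complexes phosphorylate the retinoblastoma protein, which releases E2F transcription factors and starts the passage from G1 into S phase. E cyclins then act with CDK2 to complete that step. Inhibitors of the INK4 family, such as p18 (Cdkn2c), block CDK4 and CDK6, whereas those of the CIP/KIP family, p27 (Cdkn1b) and p57 (Cdkn1c), bind complexes of cyclin and CDK. Adult HSCs rest mostly outside the cycle, and CDK6 level, p27, p57 and p18 have been linked to the control of these cells or their progenitors.

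The promoter sequences of 4 members are shown. Cdk4, Ccne1 and Cdkn2c are 3 of the 4 members higher in both Ab_IR and L_IR than in IR, and Cdk6 was higher in neither. They were picked after their values were seen. The window of Cdkn1b, the other member higher in both, held 1 GC box and no E-box and is not printed. The windows are the 250 bases before the RefSeq start site on GRCm38.p6, written on the strand of the gene. They lie at chr10:127063285-127063534 (plus strand, Cdk4), chr5:3343643-3343892 (plus strand, Cdk6), chr7:38107491-38107740 (minus strand, Ccne1) and chr4:109666757-109667006 (minus strand, Cdkn2c). Capitals mark the E-box CACGTG, the site bound by MYC with MAX, and the GC box GGGCGG, the site bound by SP1, on either strand.
Cdk4: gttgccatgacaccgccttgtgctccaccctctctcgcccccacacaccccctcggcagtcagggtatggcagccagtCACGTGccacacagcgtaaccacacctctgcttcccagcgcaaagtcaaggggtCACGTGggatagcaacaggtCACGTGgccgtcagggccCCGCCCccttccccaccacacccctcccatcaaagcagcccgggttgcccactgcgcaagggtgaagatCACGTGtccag
Cdk6: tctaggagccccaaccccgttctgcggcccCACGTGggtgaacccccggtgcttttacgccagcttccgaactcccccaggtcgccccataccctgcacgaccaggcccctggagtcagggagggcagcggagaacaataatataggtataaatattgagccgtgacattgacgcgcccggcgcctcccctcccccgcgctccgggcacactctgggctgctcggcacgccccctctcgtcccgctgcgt
Ccne1: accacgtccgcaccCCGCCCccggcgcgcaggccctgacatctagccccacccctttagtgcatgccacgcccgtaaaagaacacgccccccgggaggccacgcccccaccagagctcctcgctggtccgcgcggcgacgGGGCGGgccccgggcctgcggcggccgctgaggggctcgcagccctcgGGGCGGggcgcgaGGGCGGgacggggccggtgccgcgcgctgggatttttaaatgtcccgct
Cdkn2c: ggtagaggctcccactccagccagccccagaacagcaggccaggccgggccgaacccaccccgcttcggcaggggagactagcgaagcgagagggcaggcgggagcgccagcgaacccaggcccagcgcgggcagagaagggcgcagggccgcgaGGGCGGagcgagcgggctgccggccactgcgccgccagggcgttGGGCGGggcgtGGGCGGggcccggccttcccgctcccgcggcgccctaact

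The Cdk4 window held 4 E-boxes, whose first bases stood 172, 118, 98 and 11 bases before the start site. An E-box was found in 6.02% of 32851 such windows of the mouse genome, and 4 or more in only 7 of them. Cdk6 held 1, at 220 bases. A GC box was present in 32.7% of all windows, with 4 matches in Ccne1, 3 in the printed window of Cdkn2c and 1 in Cdk4. Cdkn2c had a second window, at chr4:109665373-109665622, which held no GC box. The window of the start site farther upstream was printed. No member window held the E2F site as searched (TTTCCCGC, TTTCGCGC, TTTGCCGC or TTTGGCGC on either strand, 1.86% of all windows) or the element TTTGAA of genes repressed in G1 (16.0%). The RefSeq table had 8 windows for 6 of the 10 members, and Ccnd1, Ccnd2, Ccne2 and Cdkn1c were not among them. These matches describe letters in the windows and were not tested against the levels.

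Some features of the libraries bear on every value below. Between 11467 and 12167 genes reached 1 FPKM per library. Ctrl replicate 1 stood apart, with 44.1% of rows at 0 against at most 27.3% in the other libraries. Nppa, a heart muscle transcript, was present in the 3 IR libraries and in Ctrl replicates 2 and 3 and nearly absent from the other 7, so that a batch and the difference of Ab_IR or L_IR from IR cannot be told apart except through Ctrl replicate 1. The split also set Ctrl replicates 2 and 3 apart from all Ab_IR and L_IR libraries, and Ctrl replicate 1 apart from IR. Comparisons with Ctrl thus lie partly across it. Of 12 HSC markers, Mecom, Fgd5, Slamf1 and Hoxb5 were under 1 FPKM in every library, while Kit stood at 21.3 to 25.45 FPKM in Ctrl, 6.7 to 7 in IR, 17.4 to 19.1 in Ab_IR and 17.8 to 18 in L_IR. Cd34 stood at 19.0 to 20.6 FPKM in Ctrl, 3.66 to 3.91 in IR, 16.8 to 18.3 in Ab_IR and 15.6 to 16.1 in L_IR. Flt3 stood at 9.13 to 12.1 FPKM in Ctrl, 0.96 to 1.22 in IR, 7.45 to 7.57 in Ab_IR and 5.60 to 6.02 in L_IR, although the sort is described as negative for CD34 and Flt3. These stem and progenitor markers thus differed between the groups compared. Transcripts of mature cells were abundant, and their list sums are set beside the orders of the members. In bulk libraries, fewer cells of a type and less RNA per cell cannot be told apart.

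Cdk4 was the most abundant of the 10 genes in every group, followed by Ccnd3 or, in L_IR, by Cdk6. Ccnd1 and Cdkn1c were the lowest in every group. Values were compared with limma on log2(FPKM + 1) over all genes that reached 1 FPKM in 3 or more of the 6 libraries compared, and a gene passed the test at an adjusted p under 0.05. Cdkn1c did not reach that level in any of the 6 comparisons, so 9 members were tested in each.

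**Figure D1:**
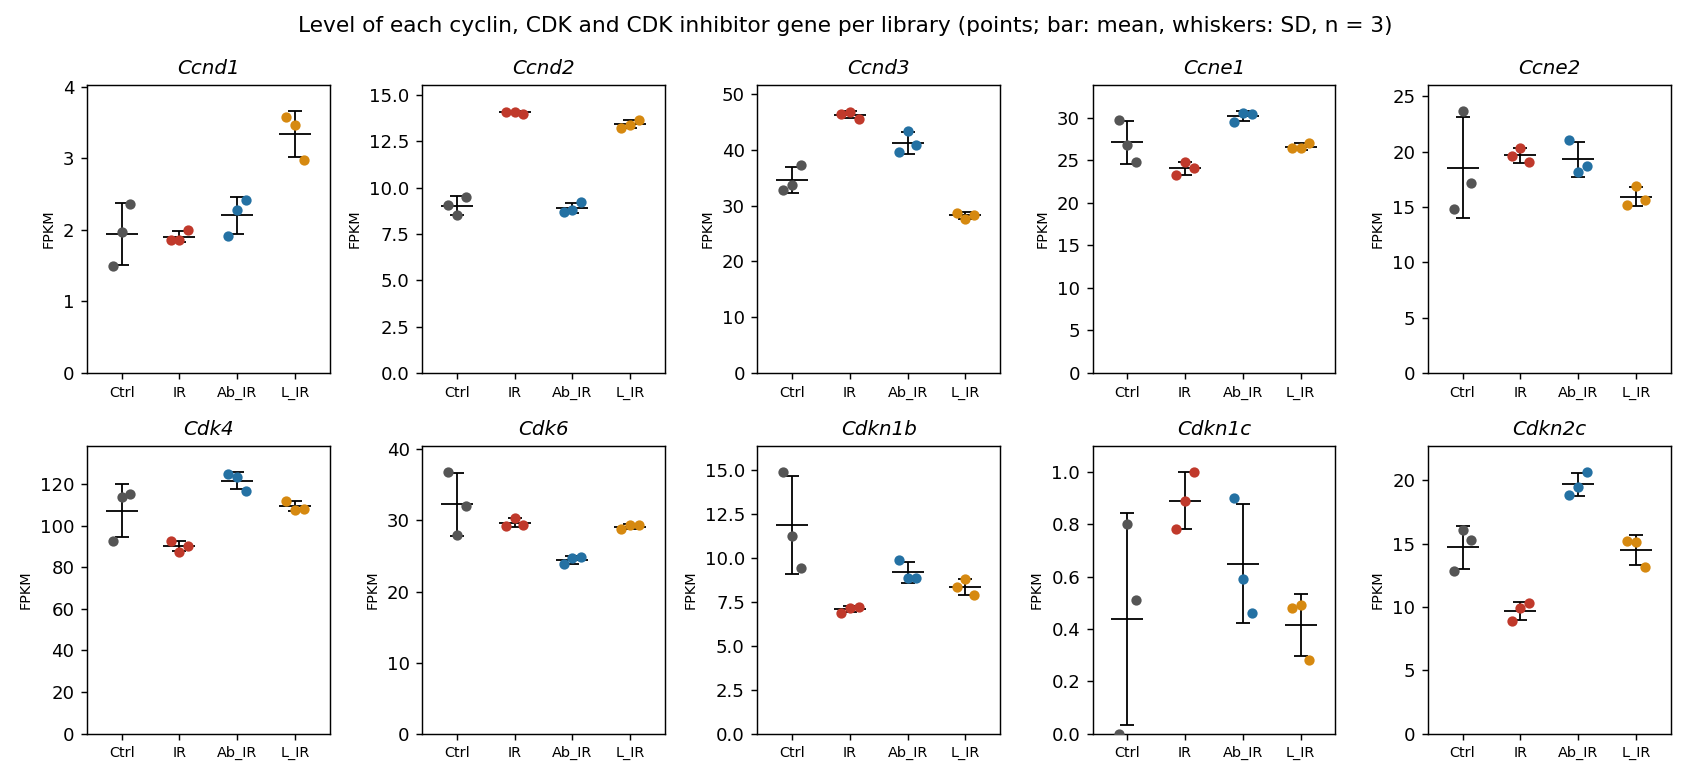
Level of each of the 10 genes in FPKM (vertical axis, from 0, scaled per gene) in the 3 libraries of each group, with the mean and SD. Ccnd2 was high in IR and L_IR (13.2 to 14.1 FPKM) and low in Ctrl and Ab_IR (8.50 to 9.51 FPKM), and Cdkn2c was lowest in all 3 IR libraries.

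Against Ctrl, Ccnd2 and Ccnd3 rose and Cdkn1b and Cdkn2c fell after irradiation alone, whereas Ccnd1 did not pass and Cdkn1c was too low for a test. In all, 4 of the 9 tested members passed, against 43.1% of the 12072 genes tested (17.5% higher and 25.5% lower). The share of the members was thus near that of all genes. The same 4 members were those whose IR and Ctrl libraries did not overlap, which held for 58.1% of all genes. None of the 4 changed by 2-fold, which 7.60% of all genes did.

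Ccnd2, a D cyclin expressed in many blood cells, stood at 9.04, 8.50 and 9.51 FPKM in the Ctrl libraries and at 14.1, 14.1 and 14.0 FPKM in the IR libraries. It was therefore 55.9% higher after irradiation, with no overlap, and rose by 0.59 on the log2 scale (SE 0.063, adjusted p = 0.000735). Ccnd3, the main D cyclin of these cells, stood at 32.8, 33.6 and 37.2 FPKM in Ctrl and at 46.5, 46.8 and 45.6 FPKM in IR. It rose by 0.41 on the log2 scale (SE 0.067, adjusted p = 0.00367). Ccnd1, the remaining D cyclin, was low, at 1.5 to 2.37 FPKM in Ctrl and 1.86 to 2.0 FPKM in IR. Its log2 difference of -0.01 had a 95% confidence interval of -0.31 to 0.29.

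Cdkn1b, which encodes p27, stood at 14.9, 11.2 and 9.44 FPKM in the Ctrl libraries and at 6.88, 7.16 and 7.20 FPKM in the IR libraries. Every IR library lay below every Ctrl library, although the Ctrl libraries were themselves spread widely, with replicate 1 the highest. Cdkn1b fell by 0.65 on the log2 scale (SE 0.15, adjusted p = 0.0148). The call was lost when any single IR library was left out, at log2 fold changes of -0.66 to -0.63. Without Ctrl replicate 1 Cdkn1b fell by 0.48 and kept its call.

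Cdkn2c, which encodes the INK4 inhibitor p18, stood at 12.8, 16.1 and 15.3 FPKM in Ctrl and at 8.86, 9.89 and 10.3 FPKM in IR. It fell by 0.55 (SE 0.10, adjusted p = 0.00604), and by 0.64 without Ctrl replicate 1. Cdkn1c, which encodes p57, was listed at 0, 0.80 and 0.51 FPKM in Ctrl and at 0.78, 0.89 and 1.0 FPKM in IR, too low for a test. The summed level of the 3 inhibitors was 25.2 to 28.1 FPKM in Ctrl and 16.5 to 18.5 FPKM in IR, whereas that of the 3 D cyclins was 43.3 to 49.1 FPKM in Ctrl and 61.6 to 62.8 FPKM in IR. Cdkn2d, an INK4 inhibitor outside the set, rose from 17.1 ± 4.08 to 30.8 ± 0.819 FPKM (mean ± SD).

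The kinases and E cyclins did not pass after irradiation. Cdk4 stood at 92.4, 114 and 115 FPKM in Ctrl and at 92.4, 87.5 and 90.3 FPKM in IR, a log2 difference of -0.24 (SE 0.098, adjusted p = 0.0926). The low Ctrl value was that of replicate 1, and without this library Cdk4 passed, at -0.34. Cdk6 differed by -0.11 (95% confidence interval -0.36 to 0.14), Ccne1 by -0.16 (-0.36 to 0.03) and Ccne2 by 0.11 (-0.28 to 0.49). Cdk6 stood at -0.01 without Ctrl replicate 1 and at -0.20 without Ctrl replicate 2, and Ccne1 at -0.10 without Ctrl replicate 1, none past the test. Ccne2 changed sign without Ctrl replicate 1, at -0.03, and passed without Ctrl replicate 2, at 0.29.

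In Ab_IR libraries, Cdkn2c and Cdk4 were the members that rose most against IR, and Ccnd2 the one that fell most. Of the 9 members, 4 rose (Cdkn2c, Cdk4, Cdkn1b and Ccne1) and 3 fell (Ccnd2, Cdk6 and Ccnd3), against 68.7% of 12067 genes that passed in this comparison (39.4% higher and 29.4% lower). The 7 members were also those whose libraries did not overlap, against 73.0% of all genes. None passed the 2-fold limit, as 7.57% of all genes did.

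Cdkn2c showed the largest difference of any member, at 18.9, 19.5 and 20.7 FPKM in Ab_IR against 8.86, 9.89 and 10.3 FPKM in IR. The level was 2.03 times that of IR, and Cdkn2c rose by 0.95 on the scale of log2(FPKM + 1) (SE 0.061, adjusted p = 1.0e-05). Cdkn1b stood at 9.88, 8.84 and 8.86 FPKM and rose by 0.33 (SE 0.052, adjusted p = 0.000928). Both inhibitors were thus higher in every Ab_IR library than in any IR library, while Cdkn1c stood at 0.90, 0.59 and 0.46 FPKM, overlapping with IR.

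Cdk4 stood at 125, 123 and 117 FPKM in Ab_IR, above all IR libraries, and rose by 0.43 (SE 0.039, adjusted p = 5.75e-05). Cdk6, whose product can pair with the same D cyclins, moved the other way. It stood at 23.8, 24.7 and 24.9 FPKM in Ab_IR against 29.2, 30.4 and 29.3 FPKM in IR, and fell by 0.27 (SE 0.036, adjusted p = 0.000395). As a share of the summed Cdk4 and Cdk6 level, Cdk6 made up 16.0% to 17.5% in Ab_IR and 24.0% to 25.8% in IR.

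Ccnd2 stood at 8.67, 8.81 and 9.22 FPKM in Ab_IR, near the Ctrl values, and fell by 0.60 against IR (SE 0.038, adjusted p = 9.71e-06). Ccnd3 stood at 39.5, 43.3 and 40.9 FPKM and fell by 0.16 (SE 0.041, adjusted p = 0.00917). Ccne1 rose by 0.32 (SE 0.038, adjusted p = 0.000232), from 23.3, 24.8 and 24.0 FPKM in IR to 29.5, 30.6 and 30.5 FPKM in Ab_IR. Ccnd1 at 0.14 (95% confidence interval -0.03 to 0.31) and Ccne2 at -0.03 (-0.17 to 0.11) did not pass, and Ccnd1 did so without Ab_IR replicate 1, at 0.20.

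In L_IR libraries the members moved on a different set of D cyclins. Against IR, 5 members rose (Ccnd1, Cdkn2c, Cdk4, Cdkn1b and Ccne1) and 2 fell (Ccnd3 and Ccne2), with 66.8% of 12163 genes past the test (40.8% higher and 26.0% lower). The libraries of 8 members did not overlap, against 71.2% of all genes. None of the members passed the 2-fold limit, as 6.22% of all genes did. With all 12 libraries in one fit 4 members passed, as the calls of Ccne1, Ccne2 and Cdkn1b were lost.

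Ccnd3 stood at 28.7, 27.6 and 28.4 FPKM in L_IR, the lowest of all groups, and fell by 0.69 against IR (SE 0.026, adjusted p = 1.23e-06). Ccnd2 stayed high, at 13.2, 13.4 and 13.7 FPKM, with a log2 difference from IR of -0.06 (95% confidence interval -0.13 to 0.00). It passed only when libraries were scaled by their median ratio, at -0.11. Ccnd1 stood at 3.58, 3.47 and 2.98 FPKM, above every other library of the series, and rose by 0.58 (SE 0.065, adjusted p = 0.000231).

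Cdkn2c stood at 15.2, 15.2 and 13.2 FPKM in L_IR and rose by 0.54 against IR (SE 0.071, adjusted p = 0.000509). Cdkn1b, at 8.34, 8.82 and 7.91 FPKM, rose by 0.21 (SE 0.045, adjusted p = 0.00517). Cdk4, at 112, 108 and 108 FPKM, rose by 0.28 (SE 0.029, adjusted p = 0.000156). All 3 lay above every IR library, as did Ccne1 at 26.4, 26.4 and 27.0 FPKM, which rose by 0.14 (SE 0.031, adjusted p = 0.00587).

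Ccne2, the second E cyclin, stood at 15.2, 16.9 and 15.7 FPKM in L_IR against 19.6, 20.3 and 19.0 FPKM in IR and fell by 0.29 (SE 0.045, adjusted p = 0.00110). The E cyclins moved in opposite directions here, and both directions turned with the Nppa split as a term. Cdk6, at 28.8, 29.3 and 29.3 FPKM, differed from IR by -0.02 (95% confidence interval -0.09 to 0.04).

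Adding the Nppa split as a term in a fit of all 12 libraries rested on Ctrl replicate 1 and moved several of these differences from IR. Ccnd1 was then higher by 0.48 in Ab_IR and 0.92 in L_IR, both past the test. Cdkn2c was then higher by 1.22 in Ab_IR and 0.81 in L_IR, and Cdk4 by 0.73 and 0.58, both past the test. Cdkn1b turned to -0.16 in Ab_IR and -0.28 in L_IR, neither past the test. Ccne1 lost its calls, at 0.11 and -0.06, and Ccne2 turned to 0.39 and 0.13, neither past the test. Ccnd3 lost its call in Ab_IR, at -0.06, but kept it in L_IR, at -0.59. Cdk6 was then past the test in both, at -0.56 and -0.32.

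**Figure D2:**
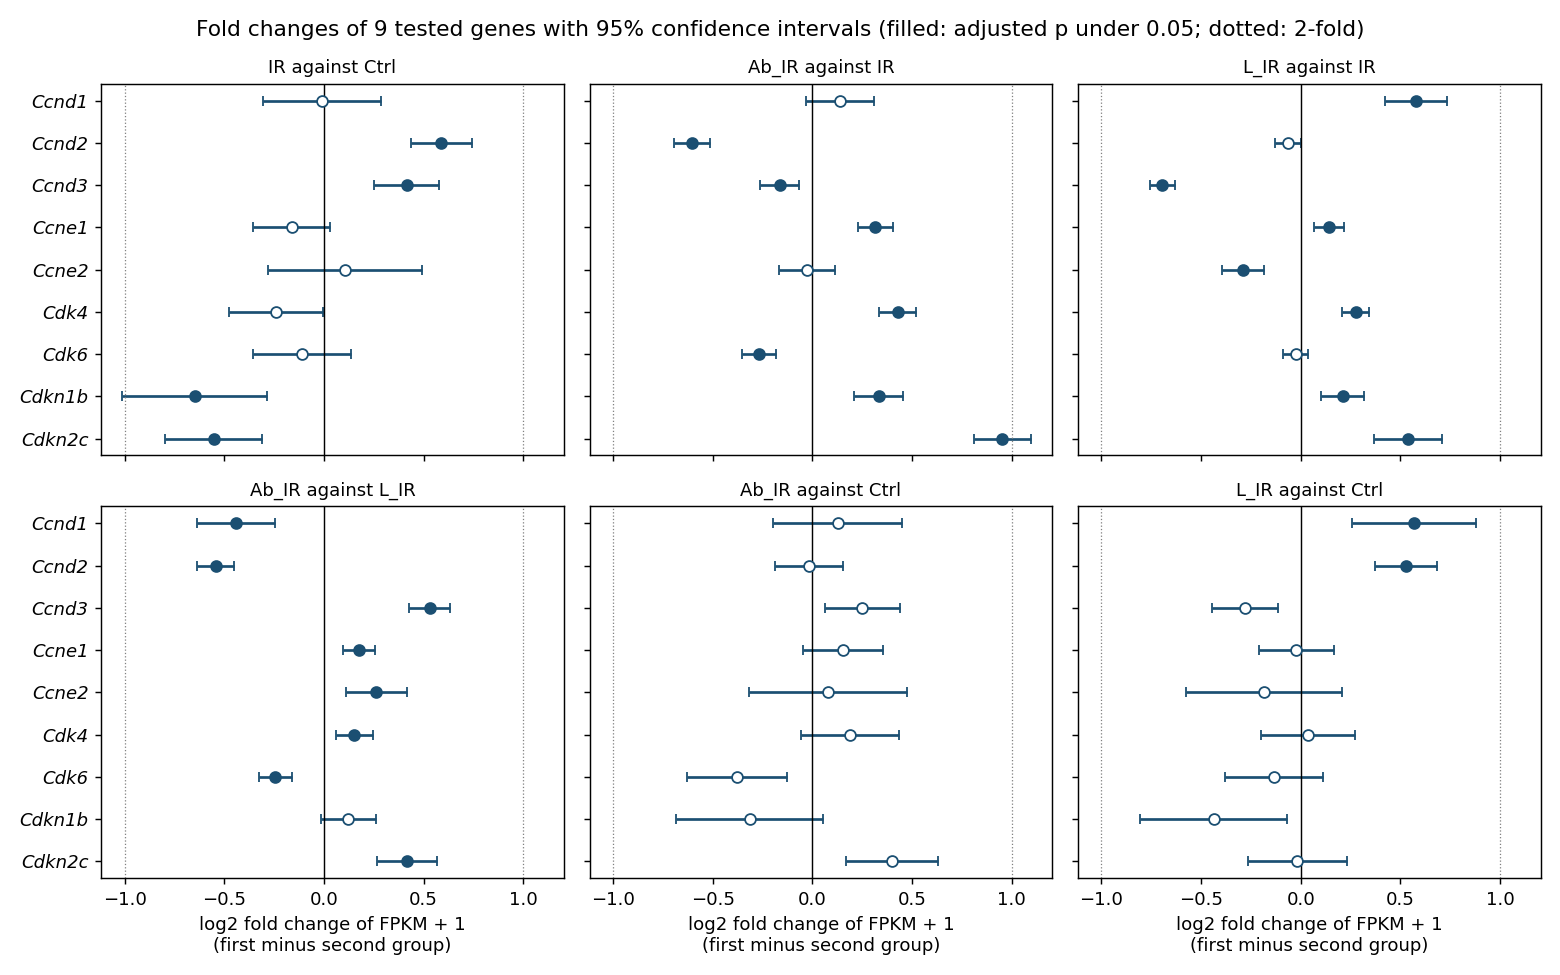
Log2 fold change of FPKM + 1 (horizontal axis, first minus second group named above each panel) with its 95% confidence interval for the 9 tested members in 6 comparisons, filled where the adjusted p was under 0.05. Cdkn2c was at 0.95 in Ab_IR against IR, and intervals were wider in comparisons that include Ctrl.

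The direct comparison of Ab_IR with L_IR, which lie on the same side of the Nppa split, separated the D cyclins most. Higher in Ab_IR were Ccnd3, Cdkn2c, Ccne2, Ccne1 and Cdk4, and higher in L_IR were Ccnd2, Ccnd1 and Cdk6. These 8 of 9 members passed, against 38.0% of 12194 genes (18.2% higher and 19.8% lower in Ab_IR), and libraries of all 9 did not overlap, against 51.9%. No member passed the 2-fold limit, which 0.533% of all genes did. With all 12 libraries in one fit 4 members passed, as the calls of Ccne1, Ccne2, Cdk4 and Cdk6 were lost.

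Ccnd2 was lower by 0.54 in Ab_IR than in L_IR (SE 0.040, adjusted p = 0.000133), with 8.90 ± 0.286 against 13.4 ± 0.228 FPKM (mean ± SD, n = 3). Ccnd3 was higher by 0.53 (SE 0.043, adjusted p = 0.000209), with 41.2 ± 1.91 against 28.2 ± 0.580 FPKM. Ccnd1 was lower by 0.44 (SE 0.083, adjusted p = 0.00622), with 2.20 ± 0.264 against 3.34 ± 0.319 FPKM. The direction thus differed within the family.

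Cdkn2c was higher by 0.42 in Ab_IR than in L_IR (SE 0.064, adjusted p = 0.00266) and Cdk6 lower by 0.24 (SE 0.035, adjusted p = 0.00200). Ccne2 at 0.26, Ccne1 at 0.18 and Cdk4 at 0.15 were higher by less. The call of Ccne2 was lost without L_IR replicate 1 or 3, at 0.23 and 0.25. That of Cdk4 was lost without Ab_IR replicate 2 or without L_IR replicate 2 or 3, at 0.14 to 0.15, and with the replicate number as a block. Cdkn1b differed by 0.12 (95% confidence interval -0.01 to 0.26) and did not pass. It ranged from 0.075 to 0.159 when single libraries were left out.

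Within the D cyclins, Ccnd3 made up 75.7% to 76.3% of the summed FPKM in Ctrl, 74.1% to 74.6% in IR and 77.8% to 79.6% in Ab_IR, but 62.1% to 63.1% in L_IR. Ccnd2 made up 29.0% to 30.4% in L_IR and at most 22.7% in any other library. The shares in Ctrl and IR were close although the sum was higher in IR, since Ccnd2 and Ccnd3 rose together. In L_IR the sum was 44.5 to 45.5 FPKM, within the Ctrl range, with a different make-up. Among the inhibitors, Cdkn2c made up 63.6% to 68.9% of the sum in Ab_IR, 61.6% to 63.3% in L_IR, 53.6% to 55.6% in IR and 46.2% to 60.5% in Ctrl, where the lowest share was that of replicate 1.

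**Figure D3:**
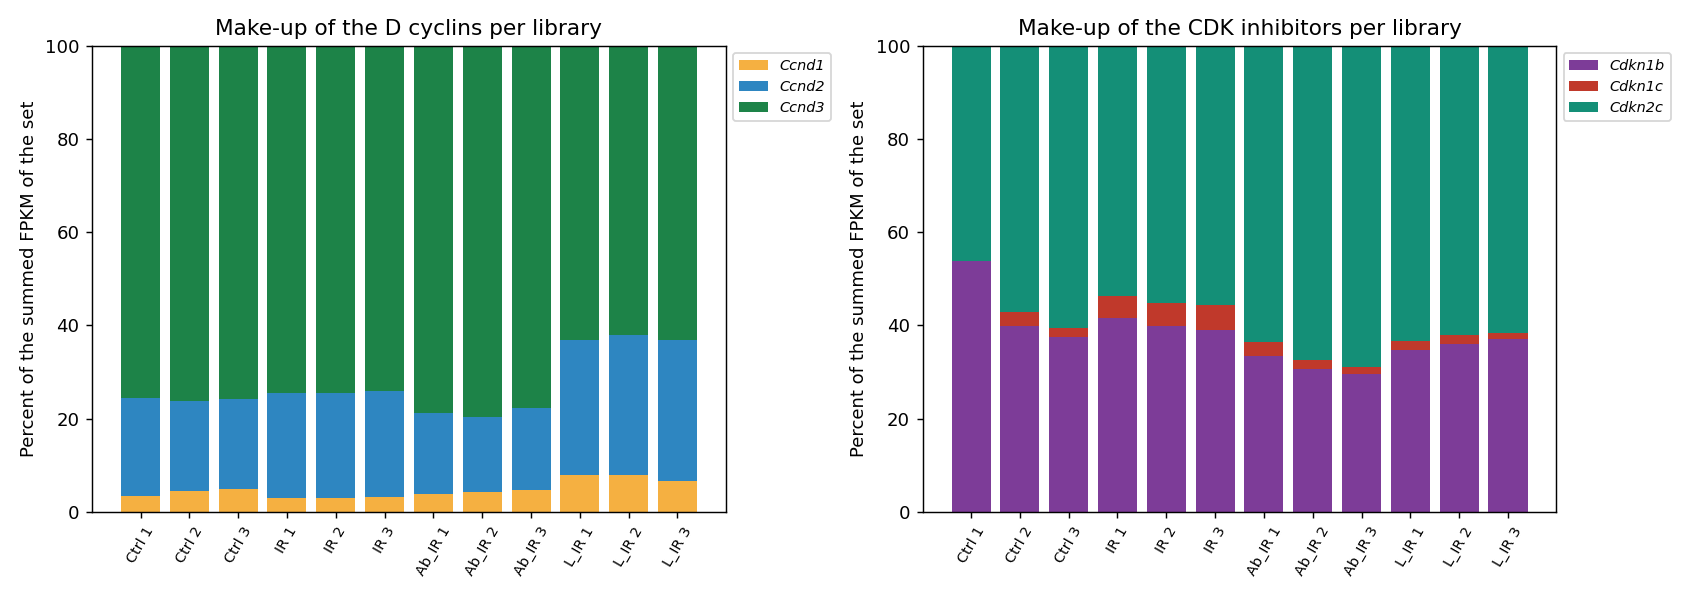
Make-up of the summed FPKM of the D cyclins (left) and of the CDK inhibitors (right) in each of the 12 libraries, in percent of the sum. Ccnd2 and Ccnd1 take a larger part in the 3 L_IR libraries than elsewhere, and Cdkn2c its largest part in Ab_IR.

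Against Ctrl, the number of members past the test in the other irradiated groups depended on the fit. In Ab_IR none of the 9 passed with limma, against 2.10% of 12134 genes (1.45% higher and 0.651% lower), while 3 had an unadjusted p under 0.05. These were Cdkn2c at 0.40 (95% confidence interval 0.17 to 0.63), Cdk6 at -0.38 (-0.63 to -0.13) and Ccnd3 at 0.25 (0.06 to 0.44). Libraries of 4 members did not overlap, against 33.5% of all genes. Without Ctrl replicate 1 Cdkn2c passed, at 0.31. The same 3 members passed with all 12 libraries in one fit, and 7 passed (all but Ccnd2 and Ccne1) with the Nppa split as a further term.

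In L_IR, 2 of the 9 members passed against Ctrl, with 8.84% of 12251 genes (4.76% higher and 4.08% lower), and both were D cyclins. Ccnd2 was higher by 0.53 (SE 0.065, adjusted p = 0.00482) and Ccnd1 by 0.57 (SE 0.13, adjusted p = 0.0465). The call of Ccnd1 was lost without Ctrl replicate 2 or any single L_IR library, at 0.53 to 0.63, and with the smaller pseudocount, without the filter and with the replicate block. Ccnd3 was at -0.28 (adjusted p = 0.0593) and passed without Ctrl replicate 1, at -0.31. With all 12 libraries in one fit 4 members passed (Ccnd1, Ccnd2, Ccnd3 and Cdkn1b), and 7 with the Nppa split as a further term (all but Ccne2 and Cdkn2c). Libraries of 4 members did not overlap, against 36.1% of all genes, and no member changed by 2-fold in either comparison, as 0.923% (Ab_IR) and 2.65% (L_IR) of all genes did.

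Comparing the group means by order, Ccnd3 ran from IR over Ab_IR and Ctrl to L_IR with no overlap between neighbours. Cdkn2c ran from Ab_IR over Ctrl and L_IR to IR, and only Ctrl and L_IR overlapped. Ccne1 had the same order, and of its neighbours only L_IR and IR did not overlap. Ccnd2 ran from IR over L_IR and Ctrl to Ab_IR, the last 2 overlapping. In Cdkn1b the order was Ctrl, Ab_IR, L_IR and IR, and in Cdk6 it was Ctrl, IR, L_IR and Ab_IR, with Ab_IR alone apart from its neighbour. Cdk4 ran from Ab_IR over L_IR and Ctrl to IR, and Ccnd1 from L_IR over Ab_IR and Ctrl to IR, with the highest group of each apart from the next. Neighbouring groups of Ccne2 overlapped throughout, as did those of Cdkn1c. By their means both had the order of Ccnd3.

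Cell type markers also differed between the groups, and their part in the results was not tested. Some list sums ran in the order of a member and others did not, and 5 of the orders changed when the largest gene of a list was left out, a check chosen after the values were seen. The sum of 12 HSC markers was 83.5 to 89.7 FPKM in Ctrl, 86.6 to 87.4 in L_IR, 79.7 to 86.7 in Ab_IR and 71.2 to 78.8 in IR, by its means the order of no member. Ly6a, which encodes Sca-1, made up 40.2% of it in Ctrl and 77.2% in IR, and the other 11 markers summed to 47.4 to 57.6 FPKM in Ctrl, 44.1 to 47.3 in Ab_IR, 40.8 to 41.9 in L_IR and 17 to 17.5 in IR. By their means these 11 ran in the order of Cdkn1b. Of 7 tested HSC markers 5 were lower and 1 higher in IR than in Ctrl, and of 7 multipotent and myeloid progenitor markers 5 were lower and 2 higher. The sum of the progenitor markers was 273 to 288 FPKM in Ab_IR, 262 to 282 in Ctrl, 262 to 265 in L_IR and 240 to 245 in IR, and that of 6 mast cell and basophil markers 344 to 362, 277 to 324, 216 to 234 and 84.4 to 86.4 FPKM. By their means both ran in the order of Cdkn2c and Ccne1. The progenitor order rested on Spi1, which was highest in IR (123 FPKM against 59.9 in Ctrl). Without it the mean of the sum was highest in Ctrl, at 211 FPKM against 201 in Ab_IR, 192 in L_IR and 120 in IR, as were Cd34, Flt3, Cd48 and Myb. The order without Spi1 was that of Cdkn1b. The sum of 6 eosinophil markers was 6273 to 6403 FPKM in Ab_IR, 4342 to 5791 in Ctrl, 2632 to 2680 in L_IR and 371 to 379 in IR, the order of Cdkn2c and Ccne1. All 6 passed as lower in IR than in Ctrl and as higher in Ab_IR and L_IR than in IR. The sum of 10 erythroid markers was 3144 to 3768 FPKM in Ctrl, 3280 to 3425 in Ab_IR, 1673 to 1726 in L_IR and 589 to 594 in IR, the order of the Cdkn1b means, and all 10 passed as lower in IR than in each other group. The sum of 7 megakaryocyte and platelet markers was 142 to 145 FPKM in Ab_IR, 87.4 to 93.4 in L_IR, 54.8 to 70.4 in Ctrl and 13.04 to 15 in IR, the order of Cdk4. Past the test, 6 of 6 were lower in IR than in each other group. In Ab_IR 5 of 7 were higher than in L_IR, while only 1 of 6 was higher than in Ctrl, as in L_IR. The sum of 9 monocyte and macrophage markers was 251 to 272 FPKM in Ctrl, 205 to 219 in Ab_IR, 193 to 209 in L_IR and 103 to 106 in IR, and that of 8 stroma and bone markers 164 to 204, 51.4 to 57.4, 49.95 to 52.1 and 10.6 to 11.4 FPKM. By their means both ran in the order of Cdkn1b. The monocyte and macrophage order rested on Ly6c2, at 158, 101, 92.5 and 35.1 FPKM, and the other 8 summed to means of 101, 111, 107 and 69.5 FPKM in Ctrl, Ab_IR, L_IR and IR. Without Ly6c2 the order was that of Cdk4. In IR against Ctrl 5 of 9 monocyte and macrophage markers were lower and 1 higher, and 5 of 5 tested stroma and bone markers were lower. The sum of 8 T and NK cell markers was 279 to 288 FPKM in Ab_IR, 237 to 245 in L_IR, 162 to 268 in Ctrl and 215 to 220 in IR, by its means the order of Cdk4. Nkg7, a gene of cytotoxic granules, made up 89.5% to 96.2% of it. The other 7 summed to 24.6 to 25.9 FPKM in L_IR, 15.7 to 17.6 in Ab_IR, 13.2 to 15.2 in Ctrl and 6.62 to 9.30 in IR, the order of Ccnd1. In IR 4 of 7 tested were lower than in Ctrl, and in Ab_IR 4 of 7 were lower and 1 higher than in L_IR.

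The sum of 11 neutrophil markers was 16838 to 17133 FPKM in IR, 11832 to 12412 in Ab_IR, 10859 to 12655 in Ctrl and 8739 to 8953 in L_IR, the order of Ccnd3. By their means Ccne2 and Cdkn1c ran in that order too, although their neighbouring groups overlapped. Of the 11, 6 were higher in IR than in Ctrl and 10 lower in L_IR than in IR. The sum of 9 B cell markers was 45.2 to 47.1 FPKM in L_IR, 43.4 to 43.9 in Ab_IR, 29.6 to 33.0 in Ctrl and 24.4 to 25.0 in IR, the order of Ccnd1. The B cell markers Ms4a1, Pax5, Ebf1 and Rag1 were under 1 FPKM in every library, and 3 of 3 tested were higher in L_IR than in IR. Between Ab_IR and L_IR, 2 of 5 were higher in Ab_IR (Vpreb1 and Igll1) and 1 lower (Cd79a), and without Cd79a the mean of the sum was higher in Ab_IR (24.7 FPKM) than in L_IR (22.8 FPKM). The B cell order without Cd79a was that of Cdk4. The sum of 8 plasma cell markers was 25588 to 26459 FPKM in L_IR, 17849 to 18478 in Ab_IR, 17434 to 18649 in IR and 10042 to 13250 in Ctrl, most of it Igkc (24121 to 24973 FPKM in L_IR), and its order was that of no member. None of these sums ran in the order of Ccnd2 or Cdk6. Of the 8, 7 were higher in IR than in Ctrl, 3 were higher and 4 lower in Ab_IR than in IR, and 6 were higher and 1 lower in L_IR than in IR.

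The genes whose levels followed each member most closely over the 12 libraries were in part genes of such cells. Pearson's r is given as a description over 12 libraries that share 4 group levels. Closest to Ccnd2 were the immunoglobulin variable genes Ighv1-85 (r = 0.987) and Ighv4-1 (0.983), followed by Tspoap1 (0.978). Closest to Ccnd1 were the adaptor gene Sh2b3 (0.925), Ighv10-1 (0.917) and the galectin gene Lgals1 (0.911).

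Ccnd3 was followed by the adiponectin receptor gene Adipor1 (0.978), Chst12 (0.966) and the adaptor gene Dok3 (0.959). Cdkn2c was followed by Gstp1 (0.969), a glutathione transferase gene, by Ptms (0.966) and by Rps2-ps10 (0.965), a ribosomal protein pseudogene whose reads may be shared with its parent gene. Cdk4 was followed by Mcrip1 (0.983), by Gpx4 (0.980), which reduces lipid peroxides, and by Ptov1 (0.980). Cdk6 was followed by the mitochondrial gene mt-Nd4l (0.972), Iqgap2 (0.970) and Ylpm1 (0.964).

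Cdkn1b was followed by Luc7l3 (0.988), Exoc6 (0.983) and Ckap2 (0.980), Ccne1 by Capns1 (0.932), Ascc1 (0.926) and Dnttip1 (0.898), and Ccne2 by Rnf7 (0.950), Mospd1 (0.942) and Asnsd1 (0.928). Among the members themselves, Cdk4 and Cdkn2c had the highest r of the 45 pairs (0.919), followed by Ccne2 with Cdkn1c (0.800) and Ccne1 with Cdkn2c (0.798). The lowest was Ccnd2 with Cdkn1b (-0.74). Cdkn1c was at 0 to 1.0 FPKM throughout. Its value of 0 and the lowest Ccne2 value (14.8 FPKM) both came from Ctrl replicate 1.

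The rest of the pathway was read from 6 lists of 73 other genes, namely other cyclins, other CDKs, other CDK inhibitors, pocket proteins with E2F factors, phosphatases and kinases that act on CDKs, and the machinery that turns over cyclins and inhibitors. Of these, 68 were tested in every comparison. Against Ctrl, IR had 9 higher and 24 lower past the test (48.5% of the 68, against 43.1% of all genes), with a median log2 fold change of -0.12 against -0.05 over all genes. The 33 calls became 20 or 21 when an IR library was left out and 42 without Ctrl replicate 1. Against IR, 30 were higher and 23 lower in Ab_IR (77.9% past the test, all genes 68.7%, and a median of 0.08, all genes 0.06). In L_IR 28 were higher and 21 lower (72.1%, all genes 66.8%, and a median of 0.03, all genes 0.07). Between Ab_IR and L_IR, 18 were higher and 14 lower in Ab_IR (47.1%, all genes 38.0%, and a median of 0.02, all genes 0.01).

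**Figure D4:**
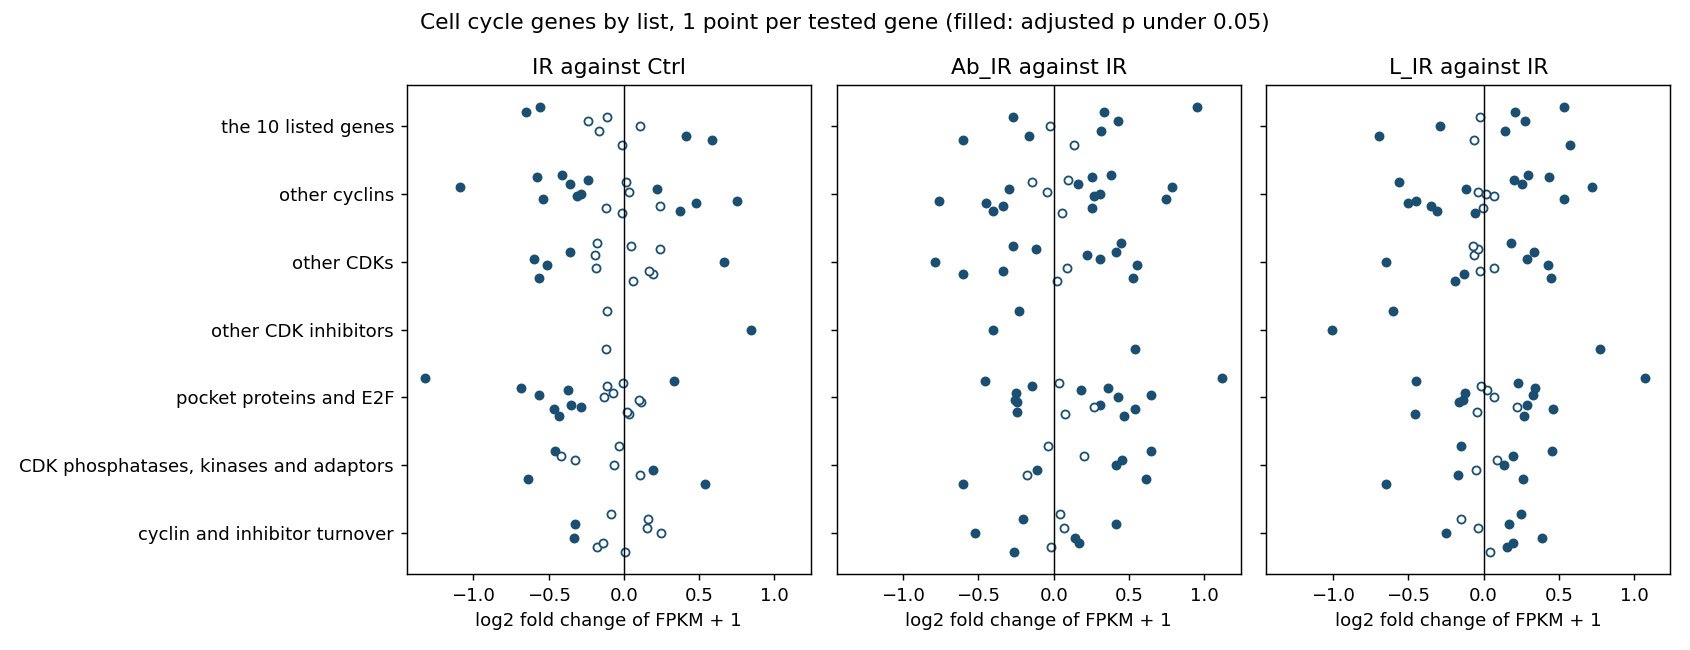
Log2 fold change of FPKM + 1 (horizontal axis) of the tested genes of each cell cycle list in 3 comparisons, 1 point per gene, filled where the adjusted p was under 0.05. The pocket protein and E2F list reaches from -1.32 to 0.33 in IR against Ctrl, and its lowest point is Tfdp2.

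After irradiation alone, 8 of 17 pocket protein and E2F genes fell and 1 rose, against 25.5% and 17.5% of all genes tested. Tfdp2, the gene of an E2F dimer partner, stood at 5.87, 4.64 and 5.22 FPKM in Ctrl and at 1.36, 1.36 and 1.78 FPKM in IR. It fell by 1.32 on the log2 scale (SE 0.11, adjusted p = 0.000286). Rb1, the retinoblastoma gene, fell by 0.68 (SE 0.085, adjusted p = 0.00132), from 18.8 ± 1.26 to 11.3 ± 0.945 FPKM. Every IR library lay below every Ctrl library for both genes.

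Of the 17 other cyclins tested, 4 rose and 8 fell in IR, read against the same shares. Ccng1, a p53 target, rose by 0.75 (adjusted p = 0.000408), from 23.4 ± 1.55 to 40.1 ± 1.42 FPKM. Cdkn1a, another p53 target, differed by -0.12 (adjusted p = 0.202), with 11.2 ± 0.259 FPKM in IR and 12.3 ± 0.739 FPKM in Ctrl. Ccnl1, a cyclin of splicing kinases, fell by 1.09 (adjusted p = 0.00148). Cdkn2d, the INK4 gene of p19 and a relative of Cdkn2c, stood at 12.4, 19.97 and 18.9 FPKM in Ctrl and at 29.9, 31.1 and 31.5 FPKM in IR. It rose by 0.84 (SE 0.17, adjusted p = 0.00854), the opposite direction to Cdkn2c. Cdk18 rose by 0.67 from 1.60 ± 0.129 FPKM. Cdkn2a and Cdkn2b, the other INK4 genes, were at most at 0.160 and 0.120 FPKM in any library and were not tested.

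Several of the same genes stood out against IR in the other irradiated groups. Tfdp2 rose by 1.12 in Ab_IR (adjusted p = 1.26e-05) and by 1.07 in L_IR (adjusted p = 2.29e-05), to 4.42 ± 0.121 and 4.23 ± 0.179 FPKM. Ccnl1 rose by 0.79 and 0.72, and Ccng2, a cyclin linked to growth arrest, rose by 0.75 in Ab_IR. Cdc25a, a phosphatase that activates CDK2, fell by 0.60 in Ab_IR and 0.65 in L_IR, from 21.5 ± 0.764 FPKM, and Cdk18 fell by 0.79 and 0.65. Ccng1 fell by 0.76 in Ab_IR. These comparisons share the IR libraries.

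Cdkn2d fell by 1.01 in L_IR against IR (adjusted p = 4.22e-06), to 14.9 ± 1.01 FPKM, again opposite to Cdkn2c. In Ab_IR against IR Cdkn2d fell by 0.41 (adjusted p = 0.000952) and Cdkn3 by 0.23 (adjusted p = 0.00705), while Cdkn1a rose by 0.54 (adjusted p = 1.73e-05). Cdkn1a, the p53-induced CIP/KIP inhibitor p21, rose by 0.78 in L_IR against IR (adjusted p = 7.16e-06), with 20.5, 20.6 and 18.7 FPKM against 11.4, 11.3 and 10.9 FPKM. It was also the only gene of these lists past the test in Ab_IR against Ctrl (0.42, adjusted p = 0.0383) and the only one higher in L_IR than in Ctrl (0.66, adjusted p = 0.00312). There 4 others were lower, among them Cdkn3 at -0.71, E2f2 at -0.42 and Lin9 at -0.35. The Ab_IR call of Cdkn1a was lost without Ctrl replicate 2 or 3 or any Ab_IR library, at 0.39 to 0.44. The calls of Cdkn3, E2f2 and Lin9 were lost without Ctrl replicate 2 or any L_IR library, at -0.77 to -0.70, -0.43 to -0.41 and -0.37 to -0.32. The replicate block ended these 4 calls but not that of Cdkn1a in L_IR.

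Between Ab_IR and L_IR, Cdkn2d was higher by 0.60 in Ab_IR (adjusted p = 0.00107), E2f2, an activating E2F, by 0.53 (adjusted p = 0.000197) and Ccno by 0.42 (adjusted p = 0.0167), a call lost without Ab_IR replicate 2, at 0.36. The transcriptional kinases Cdk12 and Cdk13 were lower by 0.48 and 0.31, and Ccng1 by 0.32. Cdkn2d and Cdkn2c were thus both higher in Ab_IR than in L_IR.

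The 12 proliferation markers did not move as one. Against Ctrl, IR had 1 higher and 3 lower, 33.3% of the list against 43.1% of all genes. Rrm2, a subunit of ribonucleotide reductase, stood at 118, 129 and 124 FPKM in Ctrl and at 193, 193 and 192 FPKM in IR, higher by 0.63. Pcna, the sliding clamp of replication, fell by 0.61, from 278, 239 and 209 to 155, 156 and 161 FPKM, Cdc6 fell by 0.39 and Tyms by 0.26. The calls of Cdc6 and Tyms were lost when any IR library was left out, at -0.39 to -0.38 and -0.26 to -0.24. Mki67 at -0.06, Top2a at -0.14, Mcm2 at -0.07, Mcm5 at 0.11, Cdt1 at 0.03, Gmnn at -0.25, Ccna2 at -0.01 and Cdk1 at 0.06 did not pass.

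Against IR, Ab_IR had 5 markers higher and 2 lower, 58.3% of the list against 68.7% of all genes. Pcna rose by 0.50, Cdt1 by 0.36, Gmnn by 0.33, Tyms by 0.33 and Cdc6 by 0.25, while Rrm2 fell by 0.52 and Mki67 by 0.47. In L_IR 4 rose, namely Cdt1 by 0.26, Pcna by 0.26, Tyms by 0.17 and Mcm2 by 0.14, and 4 fell, namely Rrm2 by 0.72, Mki67 by 0.23, Cdk1 by 0.19 and Ccna2 by 0.06, in all 66.7% of the list against 66.8% of all genes. The call of Ccna2 was lost whichever library was left out, at -0.07 to -0.05. With the Nppa split as a term Cdc6 turned to -0.04 in Ab_IR, and Cdk1 to 0.09 and Pcna to -0.05 in L_IR.

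Between Ab_IR and L_IR, 6 markers were higher in Ab_IR, namely Gmnn by 0.34, Pcna by 0.24, Cdk1 by 0.21, Cdc6 by 0.20, Rrm2 by 0.19 and Tyms by 0.15, and Mki67 was lower by 0.24, in all 58.3% of the list against 38.0% of all genes. The call of Rrm2 was lost without L_IR replicate 1 or 2 (0.17 and 0.20) and that of Tyms without L_IR replicate 1 or 3 (0.15 for both). None of the 12 passed against Ctrl in Ab_IR or L_IR with limma, where 2 and 4 had an unadjusted p under 0.05.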

How the data were processed

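Each deposited file lists gene names and values of 1 library. The authors' unit is not named, and the values were read as FPKM because they sum to 344338 to 405123 per library and, times exon length, to a nearly constant total. The submitters' processing notes name fastp, HISAT2, StringTie and GRCm38 (mm10), the study's methods RSEM, and which made the values is not stated. limma 3.58.1 in R 4.3.3 (lmFit, eBayes with trend) modelled log2(FPKM + 1) in the libraries of each pair of groups, which understates fold changes of low genes, with Benjamini-Hochberg adjustment over all genes tested. A 2-fold call also needed an absolute log2 fold change above 1. The script was tested on simulated data. Members and lists were chosen with earlier results of these data known. Besides the members and tested proliferation markers, the text names, per comparison, the 3 largest rises and falls among other cell cycle genes past the test without overlap and, per member, the 3 genes of highest r with a mean of at least 10 FPKM, predicted genes left out. Cdkn2a and Cdkn2b, Cdkn1a in IR against Ctrl, and Cdkn1a, Cdkn2d and Cdkn3 in Ab_IR against IR, were named after their values were seen. Promoters are from RefSeq, gene lengths from GENCODE M21. Figures used matplotlib 3.10.9 in Python 3.11.15. Alternatives are given in the closing section.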

Additional observations from a re-analysis of the deposited data

How the results depend on the processing

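Summing rows of a gene name or fitting without trend kept the direction and side of the threshold of every member's fold change. With the mean of at least 10 FPKM, 19, 28, 25 and 18 other cell cycle genes passed for IR over Ctrl, Ab_IR over IR, L_IR over IR and Ab_IR over L_IR, fewer genes being tested. All 12 libraries in one fit gave 4 members in L_IR against IR, 4 in Ab_IR against L_IR, 3 for Ab_IR over Ctrl and 4 for L_IR over Ctrl, and 32, 19, 12 and 14 other genes. In that fit 15 fold changes of members, named genes and proliferation markers lost their call, not all named here. A further 7 gained one and 87 kept their side. The Nppa split as a term gave 7 members and 43 other genes for Ab_IR over Ctrl, 7 and 42 for L_IR over Ctrl, and 1 member past 2-fold in Ab_IR against IR, where a pseudocount of 0.1 also gave 1. It turned Ccne2 to -0.035 (IR against Ctrl), 0.39 and 0.13 (Ab_IR and L_IR against IR) and 0.10 (L_IR against Ctrl), Cdkn1b to -0.16 and -0.28, Ccne1 to -0.060 and Cdkn2c to 0.16 (L_IR against Ctrl), and among proliferation markers Cdc6 to -0.041 (Ab_IR against IR), Cdk1 to 0.095 and Pcna to -0.054 (L_IR against IR). Quantile normalization turned Ccnd1 to 0.20 (IR against Ctrl) and -0.041 (Ab_IR against IR), Cdk6 to 0.037 (L_IR against IR) and Cdk4 to -0.12 (L_IR against Ctrl), and median scaling Ccnd1 to 0.021 (IR against Ctrl). In L_IR against Ctrl, 1 member passed with a pseudocount of 0.1 and 1 with no filter, which left 2 other genes there and 0 in Ab_IR against Ctrl. Fitting without trend also left 0 there. Where no value or construction is given, the cause was not tested.

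Deviations of libraries with the same replicate number correlated at -0.28 to 0.21 over 18 pairs, 2 of them over 0.1, so the numbers were not taken as pairing. The replicate block left 1 member and 1 other gene in L_IR against Ctrl and 0 other genes in Ab_IR against Ctrl. With it 10 fold changes of members, named genes and proliferation markers lost their call, not all named here, and 99 kept their side.

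Leaving out 1 library at a time gave 20 to 42 other cell cycle genes in IR against Ctrl (20 or 21 without an IR library, 42 without Ctrl replicate 1), 0 to 1 where Ab_IR was set against Ctrl and 1 to 12 where L_IR was (12 without Ctrl replicate 1). Members past the test ranged from 0 to 1 and from 1 to 3 there. Fold changes near 0 changed sign: Ccnd1 and Ccne2 in IR against Ctrl (-0.12 to 0.093 and -0.035 to 0.29), Ccne2 in Ab_IR against IR (-0.089 to 0.015), Ccnd2 and Ccne2 in Ab_IR against Ctrl (-0.054 to 0.019 and -0.062 to 0.26), and Ccne1, Cdk4 and Cdkn2c in L_IR against Ctrl (-0.082 to 0.045, -0.065 to 0.092 and -0.11 to 0.047).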
